A study of Homo sapiens with 4 samples.

Results

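Mitotic kinases are the enzymes that drive and time the division of a cell. The 10 genes described here are PLK1, PLK4, AURKA, AURKB, BUB1, BUB1B, TTK, NEK2, MELK and PBK. They were chosen by name, through the current NCBI symbol of each gene identifier, and make up 10 of the 23459 genes listed in every library. Their RNA was measured in hTERT RPE-1 cells, a wild-type human line of retinal pigment epithelium that telomerase has made immortal. All cells had been starved for 48 h in medium with 0.1% serum, which arrests them in G0/G1, and were then exposed to 200 μM merbarone, a drug that inhibits the catalysis of DNA topoisomerase II. There were 4 libraries, 2 after 4 h of merbarone and 2 after 8 h. Untreated cells were not analysed here, so the time of exposure and the time spent in low serum cannot be told apart. In bulk RNA, fewer cells in division and less of a transcript per cell cannot be told apart either.

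A cell enters mitosis when CDK1 is activated, and the kinases described here share the work of division, some of it before that step. PLK1, AURKA and NEK2 act at the centrosomes and the spindle poles, PLK4 starts the duplication of the centrioles, and AURKB works on chromosomes and at the site of cleavage. TTK, BUB1 and BUB1B hold back anaphase until every chromosome is attached to the spindle. Most of these genes are transcribed late in the cell cycle, and their RNA is low in resting cells.

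All 10 mitotic kinases had lower RNA at 8 h than at 4 h. Their counts, normalized for depth and composition by the TMM method, summed to 4348 and 4325 in the 4 h libraries and to 1848 and 1805 in the 8 h libraries. In the quasi-likelihood test of edgeR over 12559 genes, 8 of the 10 passed both thresholds of the study, a p below 0.05 after Benjamini-Hochberg adjustment and a log2 fold change (log2FC) beyond 1 in either direction. Of all tested genes, 3.88% passed as lower and 1.45% as higher at 8 h. PLK4 and AURKB passed the adjusted p alone, as did 18.8% of all tested genes in that direction. The 8 h libraries lay below both 4 h libraries for all 10 genes, against 34.9% of all tested genes. The median log2FC was −1.24 over the 10 genes and 0.00 over all tested genes.

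**Figure D1:**
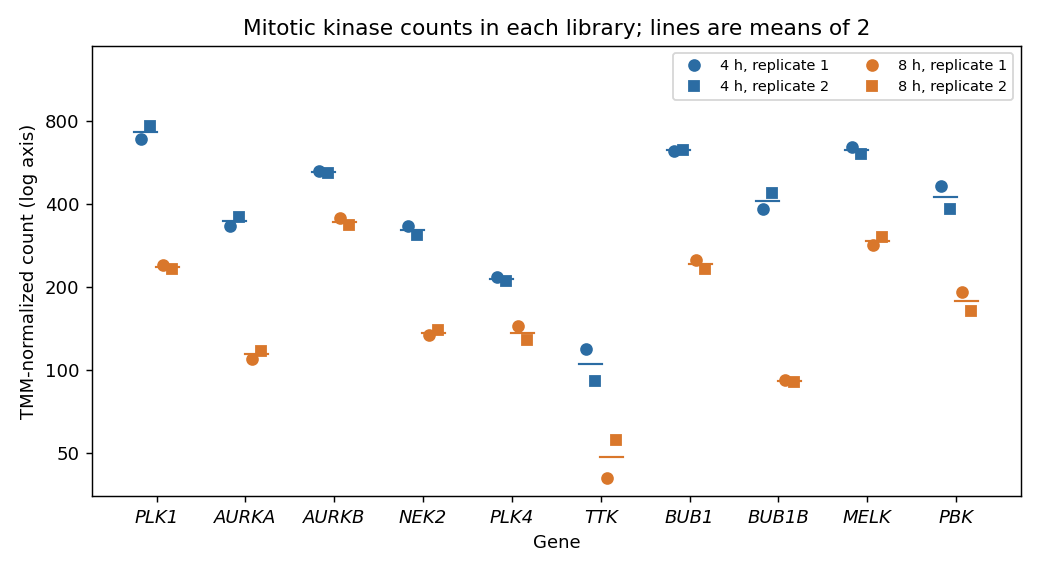
TMM-normalized counts (log axis) of the 10 mitotic kinases in the 4 libraries, with blue for 4 h and orange for 8 h, circles for replicate 1, squares for replicate 2 and lines for means of 2 libraries. The 8 h points of every gene lie below its 4 h points, with the widest gap for BUB1B and narrow gaps for AURKB and PLK4.

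The promoters of the genes were read from RefSeq (GRCh38.p14), which gave a window of 250 bases before to 50 bases after the start for 7 of the 10, namely PLK1, PLK4, AURKB, BUB1, BUB1B, NEK2 and MELK. Where a gene had several starts, the most upstream was taken. The CHR is an element of late cell cycle promoters that the MuvB complex binds, and the CCAAT box is bound by NF-Y. Both strands were searched for the CHR, as TTTGAA or TTCGAA, for CCAAT, and for the E2F site TTTNNCGC, and overlapping matches were all counted. The 160 bases before the start are shown for the pair of genes with a CHR there, for those with a CCAAT box, and for PLK4, which had the smallest fall beside AURKB. Capitals mark the matches, on either strand, and ATTGG is CCAAT read on the other strand.
PLK1 (chr16:23678729-23678888, plus strand): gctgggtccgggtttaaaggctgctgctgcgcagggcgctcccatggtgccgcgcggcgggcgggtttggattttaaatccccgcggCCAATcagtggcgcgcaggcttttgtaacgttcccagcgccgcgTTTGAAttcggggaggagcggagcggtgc
BUB1B (chr15:40160909-40161068, plus strand): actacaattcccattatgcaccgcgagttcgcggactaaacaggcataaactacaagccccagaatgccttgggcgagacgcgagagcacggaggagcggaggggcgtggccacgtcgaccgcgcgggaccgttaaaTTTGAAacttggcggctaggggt
BUB1 (chr2:110678064-110678223, minus strand): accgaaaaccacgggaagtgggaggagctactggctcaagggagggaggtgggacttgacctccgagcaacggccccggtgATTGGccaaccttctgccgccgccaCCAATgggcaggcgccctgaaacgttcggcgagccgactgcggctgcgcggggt
NEK2 (chr1:211675622-211675781, minus strand): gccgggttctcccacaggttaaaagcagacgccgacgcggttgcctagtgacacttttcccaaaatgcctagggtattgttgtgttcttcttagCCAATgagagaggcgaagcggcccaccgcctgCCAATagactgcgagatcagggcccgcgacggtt
AURKB (chr17:8210250-8210409, minus strand): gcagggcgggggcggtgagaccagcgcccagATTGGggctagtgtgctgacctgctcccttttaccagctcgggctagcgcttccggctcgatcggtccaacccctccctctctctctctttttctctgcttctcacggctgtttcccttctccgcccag
PLK4 (chr4:127880733-127880892, plus strand): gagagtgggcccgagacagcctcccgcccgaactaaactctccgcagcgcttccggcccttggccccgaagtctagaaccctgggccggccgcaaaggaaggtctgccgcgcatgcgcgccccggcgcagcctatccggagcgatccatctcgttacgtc

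A CHR stood within the whole window in 4 of the 7 genes, against 16.7% of the 27305 genes with a window. It began 29 bases before the start in PLK1 and 23 bases before it in BUB1B, the genes with the largest falls of the 7. In BUB1 and PLK4 it lay beyond the start, at position 2 and, on the other strand, at position 39. Before the start alone, 2 of the 7 genes had a CHR, against 14.6% of all genes. A CCAAT box was found in 4 of the 7, PLK1, BUB1, NEK2 and AURKB, and in 35.7% of all genes. BUB1 and NEK2 held 2 each. No E2F site in these letters was found in the 7 windows, and 6.93% of all genes had one. MELK had none of the searched letters in its window. AURKA, TTK and PBK had no window, though the fall of AURKA was close to that of PLK1. These matches describe the sequence, and the binding of a factor was not measured. A link between a motif and the size of a fall was not tested.

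PLK1 (chromosome 16, 23688977 to 23701688, plus strand, hg19) encodes the polo-like kinase that promotes mitotic entry, spindle formation and cytokinesis. It had 690.1 and 771 normalized counts at 4 h, against 240.3 and 232 at 8 h. The times lay far apart beside the spread of their replicates. Its mean went from 730.3 ± 56.9 to 236 ± 5.65 (SD, n = 2 each), 3.09 times lower, with a log2FC of −1.63 (95% interval −1.86 to −1.40, edgeR adjusted p = 2.38e-09). Of all tested genes, 0.756% had a log2FC as low. The exons of PLK1 share 58 bases with ERN2, listed at 0 reads in all 4 libraries, and 553 bases with a long non-coding RNA, both on the other strand.

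AURKA (chromosome 20, 54944445 to 54967393, minus strand) encodes the Aurora kinase that matures centrosomes and, once bound by TPX2, builds the spindle. It had 334 and 359.9 normalized counts at 4 h, against 110.5 and 118 at 8 h. The fall was close to that of PLK1. Its mean went from 347 ± 18.4 to 114 ± 5.36 (SD, n = 2 each), a log2FC of −1.60 (95% interval −1.90 to −1.31, edgeR adjusted p = 6.15e-08).

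AURKB (chromosome 17, 8108051 to 8113918, minus strand) encodes the Aurora kinase of the chromosomal passenger complex, which corrects faulty attachments of chromosomes to the spindle. It had 529 and 521 normalized counts at 4 h, against 356 and 337 at 8 h. The times did not overlap, and AURKB and PLK4 kept the most of their RNA, in an order that turned with the correction for the trend with abundance (log2FC −0.62 for AURKB and −0.56 for PLK4). Its mean went from 525 ± 5.16 to 346 ± 13.6 (SD, n = 2 each), 1.52 times lower. The log2FC of −0.60 (95% interval −0.82 to −0.38, edgeR adjusted p = 0.000173) was short of the fold threshold, and its interval did not meet that of AURKA.

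NEK2 (chromosome 1, 211831999 to 211848972, minus strand) encodes a kinase that loosens the link between the duplicated centrosomes. It had 334 and 310.0 normalized counts at 4 h, against 134 and 140.4 at 8 h. Replicates were close and the times were apart. Its mean went from 322 ± 16.8 to 137 ± 4.54 (SD, n = 2 each), a log2FC of −1.23 (95% interval −1.52 to −0.94, edgeR adjusted p = 1.18e-06).

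PLK4 (chromosome 4, 128802048 to 128820379, plus strand) encodes the polo-like kinase that starts centriole duplication, a step that begins before mitosis, at the entry into S phase. It had 219 and 211 normalized counts at 4 h, against 145 and 129 at 8 h. The groups did not overlap, and the step was small beside that of PLK1. From 4 h to 8 h the mean went from 215 ± 5.47 to 137 ± 11.3 (SD, n = 2 each), 1.57 times lower. The log2FC of −0.64 (95% interval −0.96 to −0.33, edgeR adjusted p = 0.00224) was short of the fold threshold.

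TTK (chromosome 6, 80713604 to 80752244, plus strand) encodes MPS1, the kinase at the head of the spindle checkpoint. It had 119 and 91.6 normalized counts at 4 h, against 40.9 and 55.9 at 8 h. TTK had the fewest reads of the 10 genes, and its replicates were the farthest apart relative to their mean. The 8 h libraries held 40 and 45 reads, with exact Poisson 95% intervals of 28.6 to 54.5 and 32.8 to 60.2, which cover counting error only. Its mean went from 105 ± 19.7 to 48.4 ± 10.6 (SD, n = 2 each), a log2FC of −1.14 (95% interval −1.62 to −0.65, edgeR adjusted p = 0.000706). This call was the least firm of the 8. The log2FC was −0.94 without replicate 1 of 4 h, −0.91 without replicate 1 of 8 h and −0.98 after a correction for the trend of each library with abundance, all short of the fold threshold.

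BUB1 (chromosome 2, 111395105 to 111435640, minus strand) encodes the checkpoint kinase that marks centromeric histone H2A and recruits other checkpoint proteins. It had 624 and 630.1 normalized counts at 4 h, against 252 and 234 at 8 h. Replicates nearly coincided at 4 h. The mean went from 627 ± 4.50 to 243 ± 12.7 (SD, n = 2 each), a log2FC of −1.37 (95% interval −1.59 to −1.14, edgeR adjusted p = 1.63e-08).

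BUB1B (chromosome 15, 40453224 to 40513324, plus strand) encodes BubR1, a relative of BUB1 that binds CDC20 within the mitotic checkpoint complex and whose kinase domain is thought to be inactive. It had 385 and 439 normalized counts at 4 h, against 92.0 and 90.7 at 8 h. This was the largest fall of the 10 genes. On average it dropped from 412 ± 38.0 to 91.4 ± 0.949 (SD, n = 2 each), 4.51 times lower, with a log2FC of −2.17 (95% interval −2.47 to −1.87, edgeR adjusted p = 2.1e-09). Of all tested genes, 0.207% had a log2FC as low. Its exons share 240 bases with those of PAK6 on the same strand, and PAK6 had between 1 and 3 reads in each library.

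MELK (chromosome 9, 36572859 to 36677680, plus strand) encodes an AMPK-related kinase of proliferating cells. It had 648 and 608 normalized counts at 4 h, against 285 and 304 at 8 h. The mean went from 628 ± 28.0 to 295 ± 13.5 (SD, n = 2 each), a log2FC of −1.09 (95% interval −1.31 to −0.87, edgeR adjusted p = 2.05e-07). MELK was just past the fold threshold, with an interval that reached across it.

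PBK (chromosome 8, 27667141 to 27695599, minus strand) encodes TOPK, a kinase related to MAP kinase kinases that is active in mitosis. It had 467 and 383 normalized counts at 4 h, against 192 and 164 at 8 h. In both times replicate 1 was the higher library, and the times did not overlap. The mean went from 425 ± 58.8 to 178 ± 20.0 (SD, n = 2 each), a log2FC of −1.25 (95% interval −1.53 to −0.96, edgeR adjusted p = 8.4e-07).

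**Figure D2:**
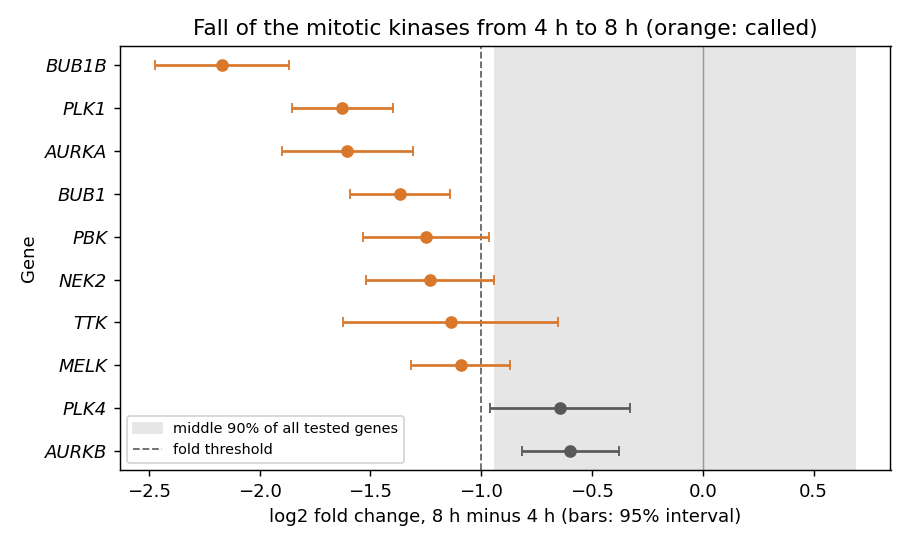
log2 fold change of each mitotic kinase, 8 h minus 4 h, with its 95% interval, orange for genes past both thresholds and grey for the others, the fold threshold as a dashed line and the middle 90% of all tested genes as a grey band from −0.94 to 0.69. BUB1B, at −2.17, lies farthest from 0, and PLK4 and AURKB are the genes inside the band.

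The intervals of BUB1B, PLK1, AURKA and BUB1 lay wholly beyond a log2FC of −1. Those of PBK, NEK2, TTK and MELK crossed it. A test against that size itself, glmTreat of edgeR, called the former 4 genes and not the latter.

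The kinases did not fall in step, which can be read within a library as the ratio of the reads of related genes. These ratios do not depend on the scaling of the libraries. AURKB had 1.58 and 1.45 reads for each read of AURKA at 4 h, and 3.22 and 2.85 at 8 h. The balance of the Aurora kinases thus moved toward AURKB in both 8 h libraries. For the polo-like kinases, there were 0.317 and 0.274 reads of PLK4 for each read of PLK1 at 4 h, and 0.604 and 0.556 at 8 h. For the checkpoint pair the ratio went down, with 0.617 and 0.696 reads of BUB1B for each read of BUB1 at 4 h and 0.366 and 0.388 at 8 h. No ratio overlapped between the times, and the 95% intervals of log2FC did not meet within any of the 3 pairs. An exact permutation test of 2 libraries against 2 cannot give a p below 0.333, so the ratios are given without one.

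**Figure D3:**
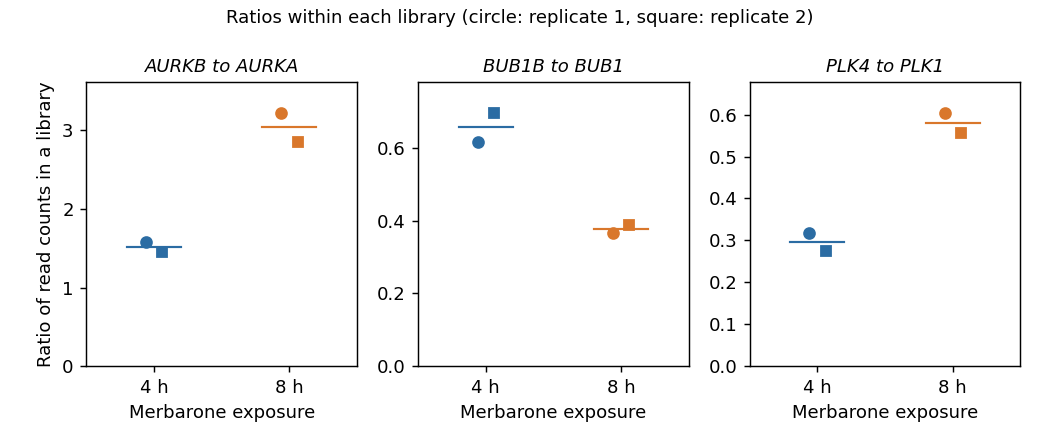
Ratio of read counts within each library (linear axis from 0) for AURKB to AURKA, BUB1B to BUB1 and PLK4 to PLK1, with circles for replicate 1, squares for replicate 2 and lines for means of 2 libraries. AURKB to AURKA goes from a mean of 1.52 at 4 h to 3.04 at 8 h, PLK4 to PLK1 from 0.296 to 0.580, and BUB1B to BUB1 from 0.657 to 0.377.

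As shares of the summed normalized counts of the 10 genes, AURKB went from 12.16% and 12.05% at 4 h to 19.26% and 18.65% at 8 h, and BUB1B from 8.85% and 10.14% to 4.98% and 5.02%. NEK2 kept an even share, between 7.17% and 7.78% in the 4 libraries. PLK1 held the largest share at 4 h, with 15.87% and 17.82%, and AURKB the largest at 8 h.

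Levels of different genes were compared as normalized counts per kilobase of exon. AURKB was the highest of the 10 genes at both times, with 234 ± 2.30 per kilobase at 4 h and 155 ± 6.05 at 8 h (SD, n = 2 each). MELK and PBK followed at 4 h, at 203 ± 9.08 and 198 ± 27.4 per kilobase, and did not differ beyond their spread. PLK1 stood at 153 ± 11.96 per kilobase, then AURKA at 118 ± 6.30. NEK2, BUB1 and BUB1B, at 104 ± 5.44, 99.4 ± 0.714 and 92.3 ± 8.52 per kilobase, lay apart from each other, each from the next, by less than the larger SD. PLK4, at 48.0 ± 1.22, and TTK, at 23.0 ± 4.29 per kilobase, were the lowest. The median over the 12352 tested genes with a length was 52.7 per kilobase at 4 h, so 8 of the 10 kinases were above it in these starved cells. At 8 h the first 4 places were the same, and BUB1B went from place 8 to place 9, at 20.5 ± 0.213 per kilobase. With the longest transcript as the length, BUB1 was at place 5 in the 4 h order, before AURKA and NEK2.

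Kinases of mitosis work with activators and scaffolds, and 18 of these were looked at, all of them tested. Of the 18, 4 fell past both thresholds, and 14 were lower and 1 higher by the adjusted p alone (edgeR, 8 h against 4 h). Over all tested genes, 3.88% fell past both thresholds, and 18.8% were lower and 19.9% higher by the adjusted p alone. The median log2FC of the 18 was −0.87. With glmTreat, the 4 calls were lost. The activator of AURKA, TPX2, fell from 1833 ± 16.8 normalized counts at 4 h to 778 ± 18.5 at 8 h (SD, n = 2 each; log2FC −1.23, edgeR adjusted p = 2.09e-09). CEP152 and STIL, which recruit PLK4 to the centriole and work with it in duplication, fell with log2FC of −1.23 and −1.11, beside −0.64 for PLK4. ECT2, the cytokinesis factor that PLK1 brings to the midzone, fell with a log2FC of −1.12. AJUBA, an activator of AURKA that also serves in cell adhesion, was the exception, with 924 and 896 normalized counts at 4 h, against 1229 and 1252 at 8 h (log2FC 0.45, edgeR adjusted p = 0.000278).

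The other partners in this list, among them the subunits of the complex of AURKB, were named after their values were seen. INCENP, CDCA8 and BIRC5, which anchor AURKB at centromeres, had log2FC of −0.64, −0.51 and −0.92, short of the fold threshold. BIRC5 passed it with library size alone (−1.02), with the trend correction (−1.02) and without replicate 1 of 8 h (−1.07). BUB3 and KNL1, which hold BUB1 and BUB1B at kinetochores, had log2FC of −0.60 and −0.92. BORA, which lets AURKA activate PLK1, had few reads, with a normalized mean of 41.9 ± 2.89 at 4 h and 22.9 ± 0.819 at 8 h (SD, n = 2 each; log2FC −0.86, edgeR adjusted p = 0.0279). It did not pass the adjusted p with DESeq2 (0.181) or with the trend correction (edgeR, 0.086). SGO1, CEP192, CENPE and CENPU lay between −0.97 and −0.51, with adjusted p below 0.05. SASS6, MAD2L1 and MAD1L1, at −0.88, −0.49 and −0.48, did not pass the adjusted p.

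Among 9 other kinases of the division cycle, 3 fell past both thresholds and 7 passed the adjusted p, all of them lower at 8 h (edgeR). The shares of all tested genes that were lower in these ways were 3.88% and 18.8%. CDC7, which fires replication origins, had a log2FC of −1.45, CDK1 one of −1.22 and CIT, a kinase of the midbody, one of −1.11. The value of CDC7 rested on 50 and 19 reads at 8 h and was −2.15 without replicate 1 of 8 h and −1.04 without replicate 2. All 3 calls were lost with glmTreat. The highest value of this list was that of WEE1, the inhibitor of CDK1. It had 475 and 389 normalized counts at 4 h, against 385 and 404 at 8 h, so that the times overlapped (log2FC −0.13, edgeR adjusted p = 0.384).

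Relatives of the PLK, Aurora and NEK families outside the 10 genes numbered 14, of which 10 passed the filter on low counts. Of these, 0 passed both thresholds in edgeR, limma-voom and DESeq2 alike, while 5 were lower and 2 higher by the adjusted p of edgeR alone, and 6 and 2 by an unadjusted p below 0.05. Of all tested genes, 3.88% passed both thresholds as lower and 1.45% as higher, so 0 of these 10 was near the background. By the adjusted p alone, 18.8% of all tested genes were lower and 19.9% higher, and the shares for the unadjusted p were not counted. The log2FC of the tested relatives ran from −0.69 for NEK8 to 0.31 for NEK7, with a median of −0.34. Single libraries moved both ends, with NEK8 at −1.16 and past both thresholds (edgeR adjusted p = 0.00474) without replicate 1 of 8 h and at −0.38 without replicate 2, and NEK7 from 0.16 to 0.47 over the libraries left out. PLK2 and PLK3, stress-responsive polo-like kinases named after their values were seen, had log2FC of −0.46 and 0.28, both within the fold threshold. With library size alone, NEK7 and PLK3, the 2 higher genes, did not pass the adjusted p (edgeR, 0.073 and 0.083). With the trend correction, NEK7, PLK3 and NEK8 did not pass it (edgeR, 0.101, 0.171 and 0.136). PLK2 had 17376 ± 458 normalized counts at 4 h and 12666 ± 369 at 8 h (SD, n = 2 each). AURKC, the meiotic Aurora kinase, had 2 to 13 reads in a library, and PLK5, NEK5 and NEK10 also stayed under the filter.

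Phosphatases that reverse the work of these kinases, with their regulators, numbered 19, all of them tested. Of these, 1 fell past both thresholds and 0 rose in edgeR, limma-voom and DESeq2 alike, while 3 were lower and 5 higher by the adjusted p of edgeR alone, and as many by an unadjusted p below 0.05. Of all tested genes, 3.88% passed both thresholds as lower and 1.45% as higher, while 18.8% were lower and 19.9% higher by the adjusted p. The counts past both thresholds and by the adjusted p alone were thus near the background. Shares for the unadjusted p were not counted. The one that fell, a call lost with glmTreat, was CDCA2, also called Repo-Man, which brings the phosphatase PP1 to chromosomes as cells leave mitosis. It went from 217 ± 18.8 normalized counts at 4 h to 92.1 ± 14.3 at 8 h (SD, n = 2 each; log2FC −1.22, edgeR adjusted p = 1.65e-05). The highest value was that of PPP2R2A, a regulatory subunit of PP2A, with a log2FC of 0.45 (edgeR adjusted p = 0.0011). The median of the list was 0.07, against −1.24 for the kinases.

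**Figure D4:**
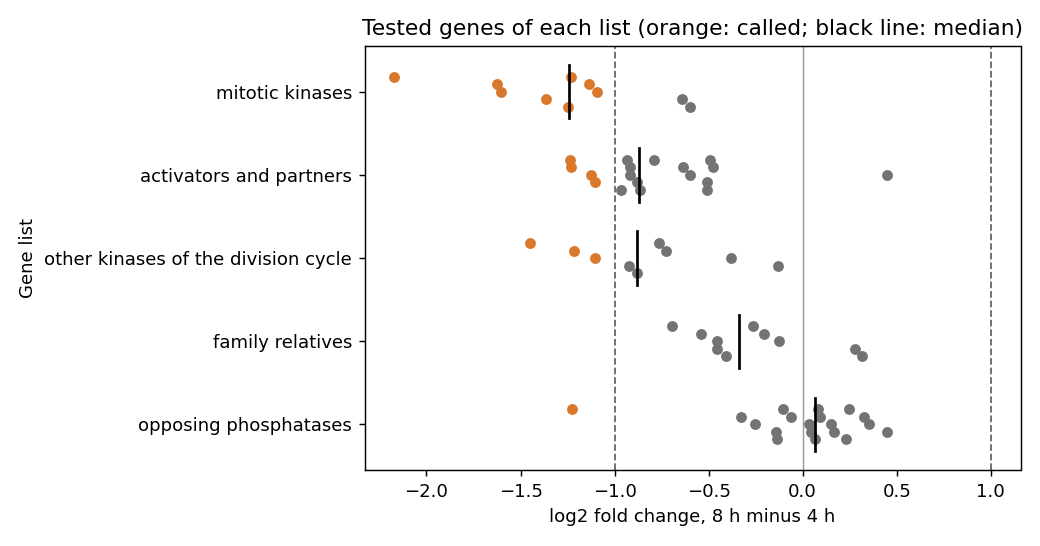
log2 fold change, 8 h minus 4 h, of every tested gene in the 5 lists, with orange for genes past both thresholds, grey for the others, black lines for the medians and dashed lines at the fold threshold. The medians run from −1.24 for the mitotic kinases through −0.87, −0.88 and −0.34 to 0.07 for the phosphatases.

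Of 9370 other genes whose normalized count averaged 100 or more, TPX2, CDC20, GINS1 and SQLE were among those with profiles over the 4 libraries nearest to the mean profile of the 10 kinases. Their Euclidean distances in centred log2-CPM ran from 0.049 to 0.069, and their log2FC from −1.31 to −1.23. Among the kinases themselves, NEK2 was nearest to this mean, at 0.074, and BUB1B farthest, at 0.901. With 4 libraries in a pair of groups, such a distance mainly reflects the size of the step from 4 h to 8 h.

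Markers of cycling cells were also lower at 8 h, MKI67 and MCM2 by more than PCNA. The value of PCNA lay within the middle 90% of all tested genes. MKI67 had a log2FC of −1.15, MCM2 of −1.03 and PCNA of −0.40, and the summed CPM of these 3 genes was 614 to 639 at 4 h and 316 to 346 at 8 h. Their part in the results was not tested. Of 8 markers of retinal pigment epithelium, 3 passed the filter, MITF, OTX2 and PMEL, while RPE65, BEST1, RLBP1, TYR and TTR had 0 to 7 reads in each library. PMEL had only 7 to 12 reads in each library, near the level of the filter. GENCODE names pseudogenes of AURKA, AURKB, BUB1 and NEK2, so reads could be lost or shared there, and AURKAP1, a copy of AURKA, had 3 to 27 reads. Blood and endothelial markers had at most 8 reads each. Totals ran from 8064450 to 10324697 counts per library. The replicates were not copies, with a chi-square statistic of 2.67 per degree of freedom at 4 h and 3.84 at 8 h, where sampling alone gives about 1. Of all tested genes, 487 were lower and 182 higher at 8 h past both thresholds. By the adjusted p alone, 2367 were lower and 2500 higher.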

How the data were processed

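The authors sequenced polyadenylated RNA with a stranded kit, mapped the reads to hg19 with Bowtie 1.2.0, discarded reads that fit several places, and deposited raw counts for each library under NCBI Gene identifiers. The annotation, the counting tool and the use of strand are not given in the sources used here. Bowtie aligns without gaps, so reads across splice junctions are lost, and reads from sequences shared with pseudogene copies are lost too.

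From these counts, the 12559 of 23459 genes that exceeded a CPM of 1 in 2 or more libraries were scaled by TMM. Times were compared with edgeR 4.0.16 (R 4.3.3) and its quasi-likelihood test across all these genes, on all 4 libraries and with time as the only term. Normalized counts are counts divided by the effective library size relative to its mean. limma 3.58.1 (voom), DESeq2 1.42.0, other scalings, filters and thresholds were alternatives. Symbols came from RefSeq, and hg19 positions and lengths from GENCODE (union of exons). The genes and lists were chosen with earlier results of these data known. By rule, the text names all 10 kinases and, of each other list, the genes past both thresholds and the extremes. The other partners, PLK2, PLK3 and the markers of cycling cells were named after their values were seen. AURKC, PLK5, NEK5 and NEK10, under the filter, are named beyond this rule too. The replicates are called biological in the methods, but nothing says how the cultures were separated. The p-values thus rest only on the spread between these libraries, which edgeR moderated for each gene over all genes. The common value of this spread was 6.52% (biological coefficient of variation). Depth was 8064450 to 10324697 counts per library. Of the 5 genes nearest in profile to the kinases, 1 is not reported here.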

Additional observations from a re-analysis of the deposited data

How the results depend on the processing

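All 10 kinases had a negative log2FC in each of the 15 alternatives, and 8 were past both thresholds with limma-voom, DESeq2, RLE size factors, library size alone, both other filters, thinned libraries and the replicate block. With the adjusted p alone 10 were called, with the trend correction 7 (without TTK), and with glmTreat 4. Over all genes, glmTreat called 84, 26 higher and 58 lower, and the adjusted p alone called 4867, 2500 higher and 2367 lower. Library size alone moved the median log2FC of all genes by −0.11 and that of the kinases to −1.345, with 125 genes higher and 641 lower, and the trend correction gave 260 higher and 345 lower. Leaving out 1 library, where the lone library is assumed to vary as the remaining pair, gave 7 to 8 called kinases, 547 to 760 called genes and a median of −1.34 to −1.15 for the kinases. WEE1 then ran from −0.27 to 0.0046. Whether same-numbered libraries belong together is not stated. The correlation of their deviations from the group means was 0.117 over 9379 genes, and the replicate block gave 691 called genes. The median level of the kinases at 4 h was 111.2 per kilobase of exon union and 160.5 by the longest transcript. A CHR stood in 4 promoters over the whole window and in 2 before the start. TTK had the fewest reads of the kinases, 40 to 133 in a library, and was called (log2FC −1.28) with thinned libraries. BORA, SGO1, KNL1, CENPE, BIRC5 and NEK8, not called, passed both thresholds in 1 or more alternatives besides the adjusted p alone. BORA did so with thinned libraries, and lost the adjusted p with DESeq2 and with the trend correction.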
